A study of Arabidopsis thaliana with 4 samples.

Results

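The plastid chromosome encodes ribosomal proteins, RNA polymerase subunits and some other enzymes and factors, and the transcripts of these genes were compared between wild-type (WT) and vip3 plants. Of the 22810 probe sets on the array, 26 are annotated with 1 of these genes and with no other gene, and they are described here. They read 7 genes of the large ribosomal subunit (rpl), 8 of the small subunit (rps), the RNA polymerase genes rpoA, rpoB, rpoC1 and rpoC2, the genes accD, clpP, matK, cemA and ccsA, and the ycf genes ycf3 and ycf4. The genes rpl2, rpl23, rps7, rps12, ycf1 and ycf2 were read only by 7 probe sets annotated with both copies of an inverted-repeat gene, and were not counted among them. No filter on low signal was applied, and all 26 were tested.

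Each genotype was measured on 2 Affymetrix ATH1 arrays, as total RNA from the aerial tissue of plants grown on soil for 14 d. The WT group carried no mutation that the labels name. The vip3 group carried vip3-1, per the study's methods, a null allele of VIP3, which encodes a subunit of the Paf1 complex (Paf1C) that accompanies elongating RNA polymerase II; it is a single allele. Equal pooling applied to both genotypes: 3 separately derived samples, with over 100 plants in each, made up 1 replicate, so the spread between arrays is that between pools.

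Plastid genes are transcribed by a bacterial-type polymerase, whose core the plastid rpo genes encode, and by a phage-type polymerase imported from the nucleus. The phage-type enzyme transcribes the rpoB-rpoC1-rpoC2 unit, so that the nucleus supplies the start of the chain, and the bacterial-type enzyme then transcribes most photosynthesis genes with the help of nuclear sigma factors. The messengers are largely polycistronic and are translated by a bacterial-type ribosome, whose proteins come partly from the plastid and partly from the nucleus. Most plastid messengers lack a stable poly(A) tail. Labelling for arrays of this type usually primes cDNA from that tail, although the sources used here do not give the primer, so plastid signals are not a direct measure of plastid RNA content.

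Values are MAS5 signals, a linear intensity that the software scales array by array; its trimmed mean (2% removed at each end) was between 500.0 and 500.1. Log2 signals correlated across probe sets at r = 0.953 between the WT arrays, 0.95 between the vip3 arrays and 0.941 to 0.946 between genotypes. The tissue label was checked with marker genes. The 4 measured of 13 green-tissue markers had signals between 16687 and 24728, summing to 79118 and 75427 on the WT arrays against 75169 and 82662 on the vip3 arrays, and none was called. The 3 measured of 6 root markers summed to 4868 and 5788 on the WT arrays against 2741 and 3327 on the vip3 arrays. Their single signals lay between 9.1 and 5739, so that 1 marker gave nearly all of the sum on WT replicate 2. Of the 3, PYK10 alone was called, and it fell. The part of these markers in the results below was not tested. None of 4 anther and pollen or 5 seed markers was measured by a named probe set.

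Transcripts of the plastid ribosome, RNA polymerase and other genes were slightly higher in vip3, by little more than the difference between arrays of a genotype. The median log2 fold change (vip3 minus WT) of the 26 genes was 0.18, with a range from -0.05 to 0.68, where the median over all 22746 probe sets tested was 0.00. It was positive for 23 genes (88.5%), against 50.1% of all probe sets and 49% of those at least as bright as the dimmest of these genes. Both vip3 arrays lay above both WT arrays for 15 genes, against 25.9% of all probe sets and 32.3% of the equally bright ones, and for 0 genes did both lie below, against 26.3%. In limma 3 genes, rpoC2, rps15 and rps16, rose at an adjusted p under 0.05 and 0 fell. Of all probe sets 9.8% were called, 4.73% higher and 5.07% lower. Brighter probe sets are called more readily, and among the 9002 at least as bright as the dimmest gene 9.48% were called higher, so that 3 of 26 (11.5%) lies near the background. At an unadjusted p under 0.05, 10 genes were higher and 0 lower, against 11.4% and 12.3% of all probe sets and 19.4% higher among the bright ones. None met the study's thresholds of p under 0.001 and a 2-fold change, which 1.56% of probe sets met. Unadjusted p-values were used here for these thresholds, a choice made because the study's methods name no adjustment. With 2 pools against 2 an exact permutation test of a single value, two-sided, cannot go below p = 0.333. The 3 calls rest on a variance model in which the spread follows the signal level: with a constant prior variance the lowest adjusted p among the 26 genes was 0.27 and 0 of the 22746 probe sets were called.

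**Figure D1:**
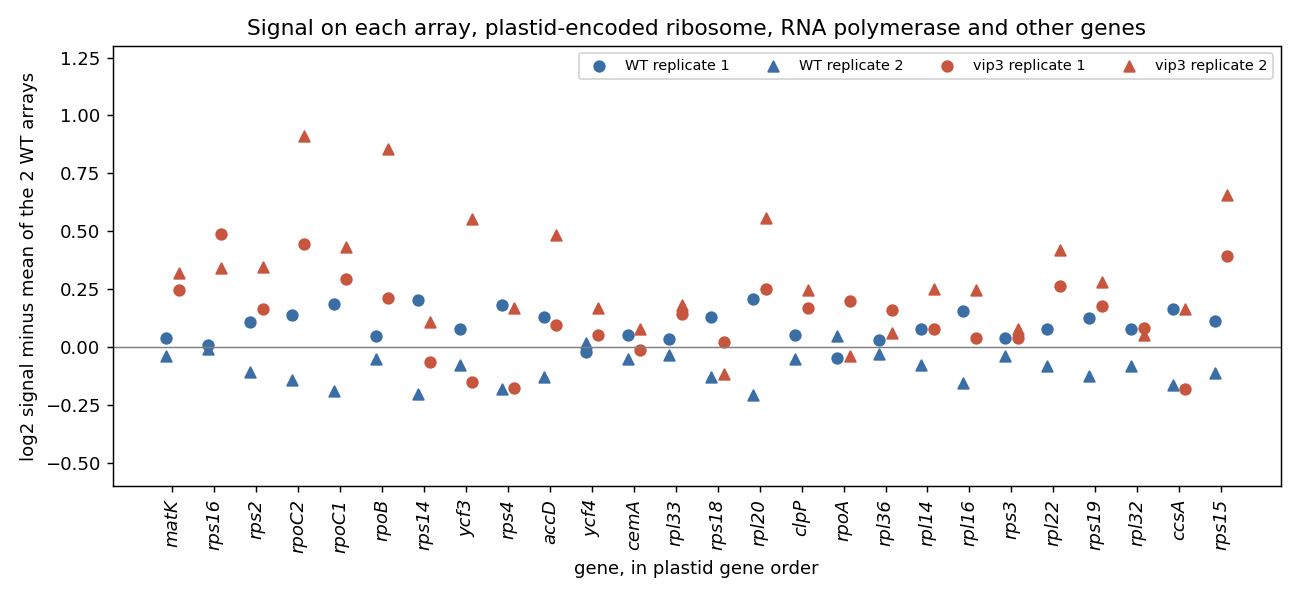
Log2 signal of each gene on each array, after subtraction of the mean of its 2 WT arrays, with the genes in plastid gene order; blue points are WT, red points vip3, circles replicate 1 and triangles replicate 2. The vip3 points of rpoC2, rpoC1, rpoB, rps15 and rps16 lie above both WT points, while those of rps4, rps14, rps18 and ccsA overlap them.

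Of the 4 RNA polymerase genes, 1 rose, 0 fell and 3 did not pass, with a median log2 fold change of 0.45. The gene rpoC2, which encodes the β″ subunit, gave signals of 1608.8 and 1324.6 on the WT arrays against 1987.4 and 2741.8 on the vip3 arrays. The groups did not overlap, and its log2 fold change was 0.68 ± 0.15 SE (1.60-fold, 95% interval 1.25 to 2.05, limma adjusted p = 0.035). The gene rpoB, for the β subunit, gave signals of 341.1 and 318.2 on the WT arrays against 381.3 and 596.6 on the vip3 arrays. Both vip3 arrays were above WT but differed widely from each other, and the log2 fold change of 0.53 ± 0.20 did not pass (adjusted p = 0.15). With removal of single arrays it ranged from 0.21 to 0.86. The β′ gene rpoC1 read 4753.0 and 3666.0 on the WT arrays against 5112.1 and 5628.8 on the vip3 arrays; again the groups did not overlap, and the log2 fold change of 0.36 ± 0.12 did not pass (adjusted p = 0.12). Without WT replicate 1 it was 0.55 and passed (adjusted p = 0.033), and without WT replicate 2 it was 0.17. These genes are transcribed together as the rpoB unit. The α subunit gene rpoA lies in another unit, downstream of ribosomal protein genes, and read 7104.9 and 7588.9 on the WT arrays against 8432.7 and 7140.4 on the vip3 arrays. Its groups overlapped, and the 95% interval of its log2 fold change was -0.15 to 0.31 around 0.08. Whether rpoA differed from the rpoB unit was not tested. Removal of WT replicate 2 ended the call of rpoC2 (log2 fold change 0.54, adjusted p = 0.13), as did removal of vip3 replicate 1 (0.91, adjusted p = 0.058) or vip3 replicate 2 (0.45, adjusted p = 0.19). Removal of WT replicate 1 did not (adjusted p = 0.034).

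Of the 8 genes of the small ribosomal subunit, 2 rose, 0 fell and 6 did not pass, with a median log2 fold change of 0.14. The share called higher was 4.73% over all probe sets and 9.48% among the equally bright ones. The gene rps15, for protein S15, gave signals of 993.3 and 851.5 on the WT arrays against 1206.3 and 1450.2 on the vip3 arrays. Every vip3 array exceeded every WT array, and the log2 fold change was 0.52 ± 0.11 SE (1.44-fold, 95% interval on the log2 scale 0.26 to 0.79, limma adjusted p = 0.03). In Escherichia coli S15 is among the proteins that bind 16S ribosomal RNA early in assembly. The gene rps16, for S16, read 708.9 and 700.1 on the WT arrays against 988.3 and 893.5 on the vip3 arrays. Here the WT arrays were close together and the vip3 arrays stood clear of them, with a log2 fold change of 0.42 ± 0.09 SE (1.33-fold, 95% interval 1.16 to 1.53, adjusted p = 0.024). The call of rps15 was lost with removal of WT replicate 2 (adjusted p = 0.12), vip3 replicate 1 (0.083) or vip3 replicate 2 (0.19). That of rps16 was lost with removal of any array (adjusted p from 0.082 to 0.14). Of the other 6, rps2, rps19 and rps3 had log2 fold changes of 0.26, 0.23 and 0.06 with groups that did not overlap. The remaining rps14, rps4 and rps18 had 0.02, -0.01 and -0.05 with overlapping groups. The protein S4, encoded by rps4, is also an early-binding protein in Escherichia coli; its signals were 9409.7 and 7321.7 on the WT arrays against 7338.0 and 9318.7 on the vip3 arrays, with the vip3 values inside the WT range, and the 95% interval of its log2 fold change was -0.35 to 0.34.

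All 7 genes of the large subunit had a positive log2 fold change, between 0.07 and 0.40 with a median of 0.16, and none passed. The nearest to the threshold was rpl22, for protein L22, which lines the peptide exit tunnel in bacterial ribosomes. Its signals were 6381.8 and 5711.2 on the WT arrays against 7255.6 and 8077.0 on the vip3 arrays, without overlap, and its log2 fold change was 0.34 ± 0.09 (limma adjusted p = 0.057). The highest value was that of rpl20, with 883.6 and 663.7 on the WT arrays against 911.6 and 1126.3 on the vip3 arrays. Its vip3 replicate 1 lay just above WT replicate 1, and the log2 fold change of 0.40 ± 0.15 did not pass (adjusted p = 0.16). Without WT replicate 1 it was 0.61 and passed (adjusted p = 0.049), and without WT replicate 2 it was 0.20. The groups of rpl33 and rpl36 did not overlap either, with log2 fold changes of 0.16 and 0.11. Those of rpl14, rpl16 and rpl32 overlapped, with 0.17, 0.14 and 0.07.

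None of the 5 genes for other enzymes and factors passed, and their median log2 fold change was 0.21. The gene matK encodes the maturase that assists splicing of plastid group II introns, and read 12240.3 and 11600.4 on the WT arrays against 14119.4 and 14877.7 on the vip3 arrays. The groups did not overlap, and the log2 fold change was 0.28 ± 0.08 SE (limma adjusted p = 0.079). The gene clpP, for the plastid-encoded proteolytic subunit of the Clp protease, read 11778.8 and 10950.2 on the WT arrays against 12752.0 and 13463.1 on the vip3 arrays; these did not overlap either, and its log2 fold change was 0.21 ± 0.08 (adjusted p = 0.19). The gene accD encodes the carboxyltransferase β subunit of the plastid acetyl-CoA carboxylase, which starts fatty acid synthesis. Its signals of 2072.1 and 1734.1 on the WT arrays against 2026.8 and 2654.6 on the vip3 arrays overlapped, and the log2 fold change of 0.29 ± 0.14 did not pass (adjusted p = 0.25). The gene cemA, for an inner-envelope membrane protein, read 12847.9 and 11969.9 on the WT arrays against 12281.5 and 13097.8 on the vip3 arrays. The gene ccsA, whose product acts in attaching heme to c-type cytochromes, read 15109.0 and 12024.4 on the WT arrays against 11876.1 and 15090.3 on the vip3 arrays. Both overlapped, with 95% intervals of the log2 fold change of -0.17 to 0.23 for cemA and -0.35 to 0.33 for ccsA.

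The genes ycf3 and ycf4 encode assembly factors of photosystem I. The signals of ycf3 were 938.4 and 841.0 on the WT arrays against 799.4 and 1302.9 on the vip3 arrays, so that the vip3 arrays lay on both sides of WT, and its log2 fold change was 0.20 ± 0.20 (limma adjusted p = 0.62). Those of ycf4 were 7534.4 and 7737.5 on the WT arrays against 7917.3 and 8596.0 on the vip3 arrays. They did not overlap, and the log2 fold change was 0.11 ± 0.08 (adjusted p = 0.46).

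**Figure D2:**
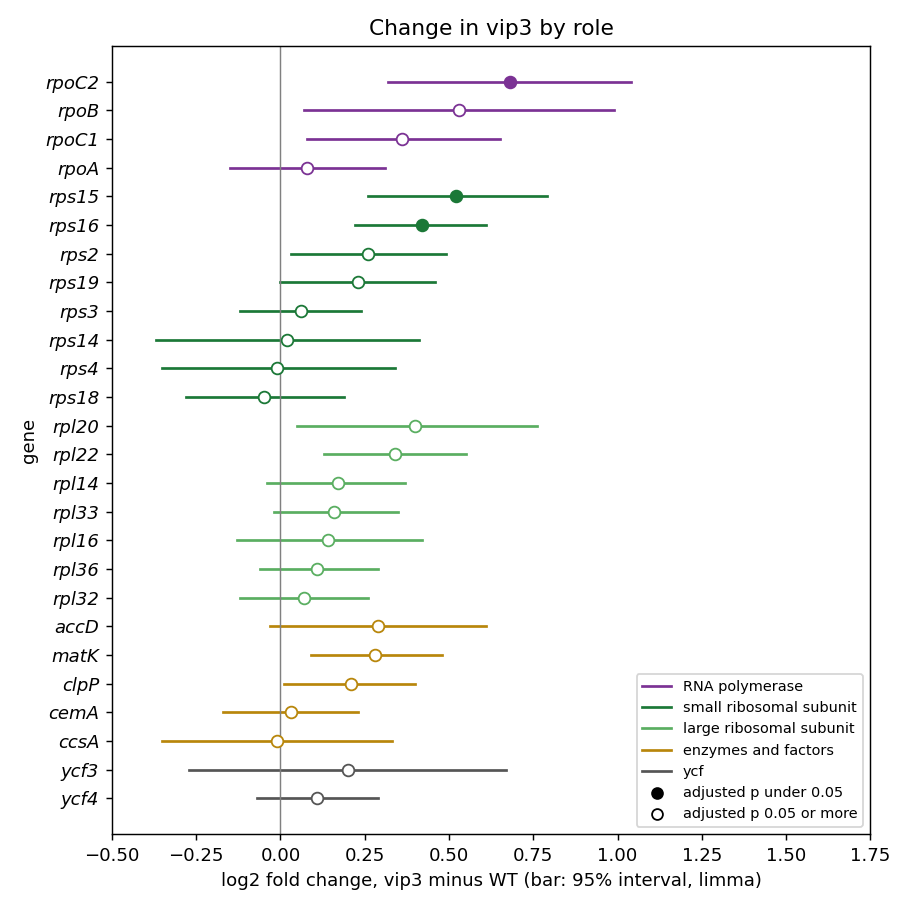
Log2 fold change (vip3 minus WT) of each gene with its 95% interval from limma, n = 2 arrays per genotype, grouped by role; filled points have an adjusted p under 0.05. Only rpoC2, rps15 and rps16 are filled, and all 7 large-subunit genes lie to the right of 0.

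The genes were also placed in the gene order of the plastid chromosome, since neighbours are often co-transcribed. The 69 plastid genes with a named probe set of their own include photosynthesis and NDH genes. Both vip3 arrays exceeded both WT arrays for 34 of them (49.3%), against 25.9% of all probe sets. Both fell below for 0, against 26.3%. The longest series of neighbours with both vip3 arrays above WT was 7 genes from atpI to psbM. It held rps2, rpoC2, rpoC1 and rpoB. The gene atpI, for a subunit of the ATP synthase, precedes rps2 in this order and is transcribed with it. Its log2 fold change was 0.67 ± 0.18 SE (limma adjusted p = 0.061). The genes atpH, atpF and atpA of the same unit had 0.50, 0.24 and 0.15, with overlapping groups (limma adjusted p = 0.28, 0.39 and 0.6). The next longest was 5 genes from ndhG to rps15. The gene ndhH, for a subunit of the plastid NDH complex, lies next to rps15, with which it is co-transcribed, and had 0.70 ± 0.09 (adjusted p = 0.0032). The other genes of this series, ndhG, ndhI and ndhA, had 0.45, 0.16 and 0.23 (limma adjusted p = 0.14, 0.37 and 0.1). Both matK and rps16, which are adjacent, also belonged to such a series, as did rpl20 and clpP, between which rps12 is not named here. In the unit that runs from rps19 to rpoA, 4 of the 7 measured genes did not overlap, 0 were called and the median log2 fold change was 0.14; in the rpoB unit it was 0.53. In the unit accD-psaI-ycf4-cemA-petA the log2 fold changes were 0.29, 0.07, 0.11, 0.03 and 0.02 in this order. The gene rps14, which follows psaA and psaB in a shared transcript, had 0.02 where these had 0.18 and 0.16. Within rpl33-rps18 the values were 0.16 and -0.05. These are descriptions. No test of a unit or of the length of a series was made, and genes of 1 transcript are not independent.

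**Figure D3:**
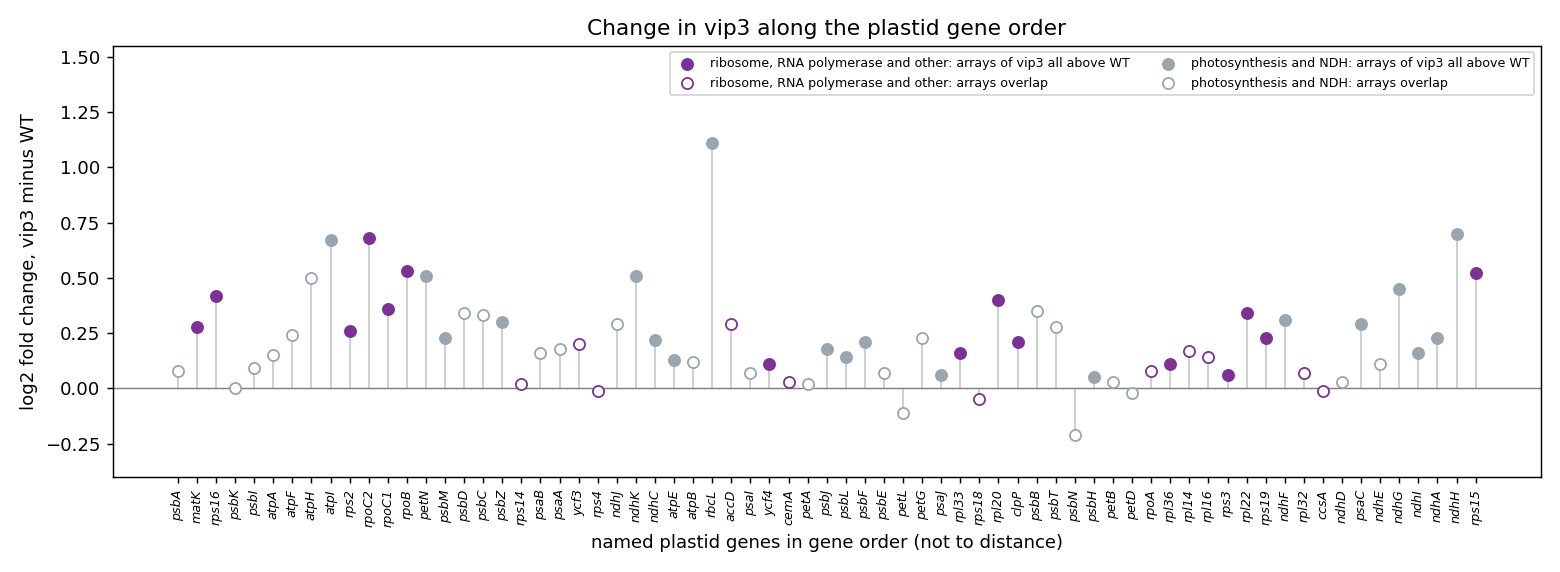
Log2 fold change (vip3 minus WT) of the 69 plastid genes with a named probe set, in gene order and not to distance; purple points are the ribosome, RNA polymerase and other genes, grey points photosynthesis and NDH genes, and filled points have both vip3 arrays above both WT arrays. The filled points from atpI to psbM and from ndhG to rps15 form the 2 longest series.

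The genes moved together from array to array within a genotype as well. WT replicate 1 was above WT replicate 2 for 24 of the 26 genes (92.3%, against 53.4% of all probe sets), with a median difference of 0.16, and vip3 replicate 2 was above vip3 replicate 1 for 21 (80.8%, against 54.3%), with a median difference of 0.15. Both differences were close in size to the median of 0.18 between genotypes. The median difference between single arrays depended on the pair. It was 0.06 for vip3 replicate 1 minus WT replicate 1, with 17 of 26 genes higher, and 0.19 for vip3 replicate 1 minus WT replicate 2, with 24 higher. For vip3 replicate 2 it was 0.18 against WT replicate 1, with 21 higher, and 0.35 against WT replicate 2, with 25 higher. The 26 genes took 0.958% and 0.869% of the summed signal of the WT arrays and 0.979% and 1.03% of that of the vip3 arrays. The number of plastids or green cells and the plastid RNA in each cannot be told apart in these pools.

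**Figure D4:**
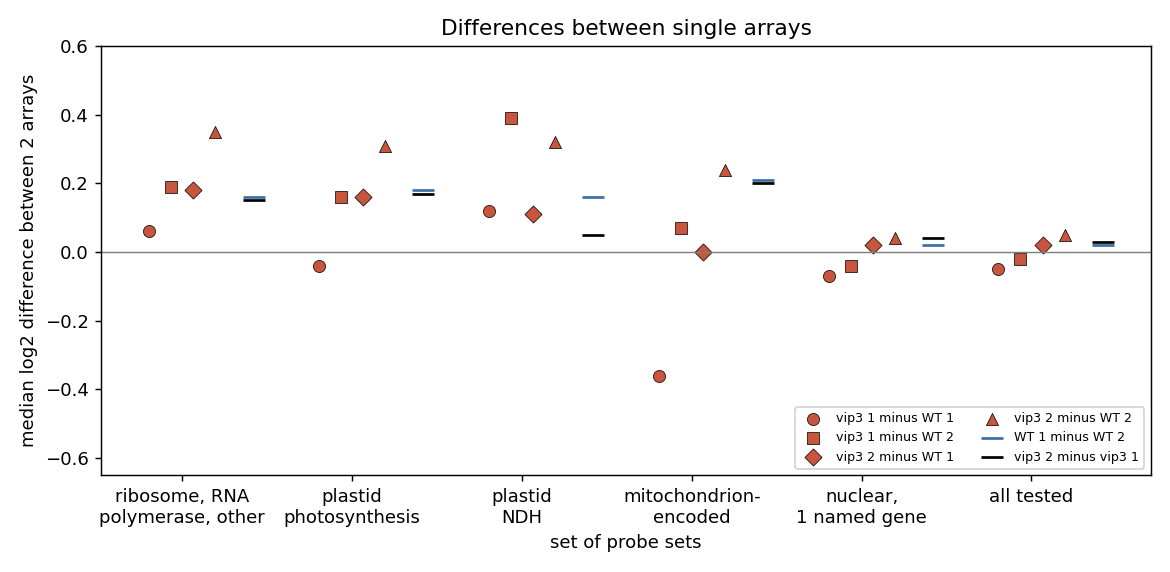
Median log2 difference between single arrays over the probe sets of each set; red symbols are the 4 pairs of a vip3 and a WT array, and the blue and black bars are the differences within WT and within vip3. For the ribosome, RNA polymerase and other genes the red symbols run from 0.06 to 0.35, and the bars lie at 0.16 and 0.15.

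The other plastid genes had medians close to this. The 33 photosynthesis genes had a median log2 fold change of 0.16. Of these 1 (3.03%) was called higher, and for 12 (36.4%) both vip3 arrays lay above both WT arrays. The 10 NDH genes had a median of 0.26, with 1 (10%) called higher and 7 (70%) not overlapping. Over all probe sets 4.73% were called higher and 25.9% did not overlap in this direction. Among those at least as bright as the dimmest of the 26 genes it was 9.48% and 32.3%. None of either set was called lower. When each array was centred on the median of the plastid probe sets, so that changes were relative to the plastid as a whole, the median of the 26 genes was 0.01 and 13 were positive. The 26 genes are among the plastid probe sets used for this centring, so a small median is largely set by construction. On this scale 10.5% of all probe sets were called, and of the 26 genes rpoC2 alone, with a log2 fold change of 0.51 and a limma adjusted p of 0.029; rps15 had 0.35 (0.099) and rps16 had 0.25 (0.29). The 23 probe sets of 16 mitochondrial genes had a median of -0.13, with 0 called and 2 higher and 4 lower without overlap. Their signals lay between 2.2 and 422.5. The 25S ribosomal RNA control, which is read from RNA without a poly(A) tail, read 148.0 and 137.6 on the WT arrays against 223.5 and 320.9 on the vip3 arrays. Both vip3 arrays were above WT, as for 15 of the 26 genes, and its part in the results was not tested. The 5S control overlapped, with 114.8 and 103.4 on the WT arrays against 101.0 and 135.9 on the vip3 arrays.

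The nuclear partners of these genes were mostly not named on the array. The list searched holds alternative names of the same gene, so its length is not a number of partners. Of 119 listed names for sigma factors, organelle RNA polymerases, polymerase-associated proteins, plastid ribosomal proteins, the Clp protease, acetyl-CoA carboxylase and cytochrome and photosystem I assembly, 3 matched a named probe set, and none was called. The gene CLPP4, for a nuclear-encoded subunit of the Clp protease core that also holds the clpP product, gave signals of 4988.5 and 5289.8 on the WT arrays against 5438.2 and 5924.5 on the vip3 arrays. These did not overlap, and the log2 fold change was 0.14 ± 0.08 SE (limma adjusted p = 0.33), beside 0.21 for clpP. CcdA, which passes electrons across the thylakoid membrane for cytochrome assembly and so acts in a process shared with ccsA, had a log2 fold change of 0.08 ± 0.07 (adjusted p = 0.55). The locus AT1G77750, which has RPS13 among its synonyms, had -0.08 ± 0.10 (adjusted p = 0.69). It was matched by name only, and whether its product belongs to the plastid ribosome was not checked.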

How the data were processed

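The authors deposited linear MAS5 signal intensities of ATH1 arrays (background and mismatch correction, a summary per probe set, scaling per array). The sources used here give no software version, detection calls or genome build. GCRMA values, on which the study based its own calls, were not analysed here. Groups were taken from the sample titles. After removal of 64 control probe sets, log2 signals of the other 22746 were fitted with lmFit and eBayes of limma 3.58.1 (R 4.3.3), vip3 minus WT, with the prior variance following the mean; the moderated tests had 7.5 degrees of freedom. P-values were adjusted by Benjamini-Hochberg over all 22746, and calls were made at 0.05. The fit was tested on simulated data whose spread was drawn from its own variance trend, so this cannot check the variance model. Alternatives changed the log offset (16), variance model, normalization, filters, replicate block and arrays included. For arrays, their number limits the precision. The p-values rest on the spread between pools, moderated by the variance trend over all probe sets.

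Names came from GEO's annotation of the platform and from a RefSeq table of the TAIR10.1 assembly, used for names and gene order only. Of 22810 probe sets 13513 had 1 gene symbol, of which 13436 matched the table, 503 had several and 8794 none; no gene was named from the last 2 kinds. The 26 genes, the lists and the tests were chosen with earlier results of these data known. All 26 are named; each array's signal is given for the called genes, the rpo and ycf genes, accD, clpP, matK, cemA and ccsA, and, chosen after their values were seen, rpl20, rpl22 and rps4. No sequence is printed.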

Additional observations from a re-analysis of the deposited data

Results flagged for a closer look

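Among the control probe sets, which entered no comparison of the genotypes, the 25S ribosomal RNA control drew attention. Its lower vip3 signal was 1.51 times its higher WT signal, and its mean in vip3 was 1.91 times that in WT. Its part in the plastid signals was not tested.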

How the results depend on the processing

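Of 338 combinations of a gene and a setting, 287 kept both the direction and the side of the threshold, and 27 reversed the direction. With 2 arrays per genotype the calls did not hold when arrays were removed. The number of the 26 genes called was 3 with all arrays and ranged from 0 to 4 when 1 array was left out, with 442 to 1332 of all probe sets called against 2229, and the median log2 fold change ranged from 0.13 to 0.27; it was 0.27 without WT replicate 1. The number of genes called was 1 with log2 of the signal plus 16 (rps16) and 1 with centring on the plastid median (rpoC2), 0 with a constant prior variance, where 0 of all probe sets passed and 3798 had an unadjusted p under 0.05, and 5 (matK and rpl22 added) with robust eBayes, without the dimmest 40% of probe sets, or at an adjusted p under 0.1, which 3397 probe sets met. It was also 5 when only probe sets at least as bright as the dimmest of the 26 were fitted, where 11.8% were called higher; this setting and the addition of the 7 inverted-repeat probe sets, which left 3 called, were chosen after seeing the data. Centring on the nuclear median gave 4, and quantile normalization or removal of probe sets with shared probes gave 3. The number meeting the study's thresholds was 0 throughout. The replicate block gave 3 called genes and 2339 probe sets, and the same 3 genes passed. Same-numbered arrays deviated from their genotype means with a correlation of -0.0438 over all probe sets and -0.42 over the 26 genes. No label pairs the arrays, so pairing was not assumed.

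Some genes that had not been called changed sign. Centred on the plastid median, where the overall median was 0.01, the log2 fold changes were -0.15 for rps14, -0.06 for ycf4, -0.14 for cemA, -0.01 for rpl33, -0.09 for rpoA, -0.06 for rpl36, -0.01 for rpl14, -0.03 for rpl16, -0.11 for rps3 and -0.10 for rpl32. Centred on the nuclear median rps4 and ccsA had 0.01, and with quantile normalization cemA had -0.02. With 1 array left out the ranges were -0.18 to 0.23 for rps14, -0.15 to 0.55 for ycf3, -0.19 to 0.18 for rps4, -0.02 to 0.08 for cemA, -0.18 to 0.08 for rps18, -0.04 to 0.20 for rpoA, -0.01 to 0.30 for rpl16, -0.01 to 0.15 for rpl32 and -0.18 to 0.16 for ccsA. Centring on the plastid median removes a shift shared by plastid genes by construction; the cause of the other changes was not tested.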
